A study of Mus musculus with 8 samples.

Results

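Expression of the genes for cholesterol and fatty acid synthesis, and of the genes that sense, move and export sterols, was examined in mouse pro-B cells with and without the histone methyltransferase Setdb1. The set comprised 31 gene symbols. A gene was read from the probesets whose platform annotation named its symbol and no other, and 30 of the 31 genes had at least 1 such probeset. Together they were read by 462 of the 212097 probesets with a single symbol (median 11 per gene). Acat2, which joins acetyl units at the head of the pathway, is not analysed here. All 30 genes lay above the limit set for dim signals in enough arrays to be tested, among 16050 of 20416 genes.

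Pro-B cells are early B-lineage cells of the bone marrow, in which the antibody heavy chain locus is being assembled. RNA from 8 samples was hybridised to 1 array each, in 4 groups of 2: Setdb1 C/C (floxed, here "control") and Setdb1 Δ/Δ (here "deleted") cells of the bone marrow without a Bcl2 transgene, and Setdb1 C/C and Setdb1 Δ/Δ cells that were bcl-2 transgenic and cultured in interleukin-7 (IL-7), the growth factor of early B cells, for 4 days. Every sample was labelled as sorted pro-B cells. Culture and the transgene always came together, so their parts cannot be told apart, and both are meant wherever culture is compared with marrow. The growth text attached to the marrow samples also describes the culture step, whereas the series' design says that those cells came directly from the marrow. The labels name neither the recombinase, the deleted part of Setdb1 nor the age of the mice. They also leave unsaid whether replicates are different mice or cultures. The p-values therefore reflect the spread of these 8 samples alone, and that spread could be technical.

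Values are log2 signals. The Setdb1 gene value was 7.02 and 6.67 in the marrow controls, 6.74 and 6.53 in the deleted marrow cells, 6.84 and 6.45 in the cultured controls, and 6.66 and 6.99 in cultured cells with the deletion. Of its 23 probesets, 3 in marrow and 1 in culture read over 1 log2 unit lower in the deleted cells, with largest changes of -1.40 and -1.46. Probesets outside the deleted part of a gene check nothing, and which part was deleted is not known here, so the genotype labels were not checked by them. The mean of 11 pro-B cell markers lay between 9.43 and 10.37 in all 8 arrays. Marrow control 1 stood apart: the mean of 14 monocyte and macrophage markers was 9.77 there and between 5.47 and 7.13 elsewhere, and 13 of the 14 were highest in it, among them C1qc with 11.50 against 5.37 in marrow control 2. The mean of 11 neutrophil markers was 9.25 to 9.68 in the marrow arrays, but it joined opposite moves with genotype. In both deleted marrow arrays 7 of the 11 read below both controls and 3 read above both. Over all 16050 genes tested, 2819 read below and 4378 above in that way. In culture the neutrophil mean was 4.68 and 7.82 in the controls and 5.62 and 8.33 in the deleted cells. In bulk samples, fewer cells of a type and less RNA per cell cannot be told apart.

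Cholesterol is built from acetyl-CoA through mevalonate, isoprenoid units, squalene and lanosterol, and fatty acids are built from the same acetyl units through malonyl-CoA. Both pathways are driven by the transcription factors SREBP2 and SREBP1, encoded by Srebf2 and Srebf1, which are held in the endoplasmic reticulum with their escort SCAP by the INSIG proteins while sterols are plentiful, and are released to the nucleus when sterols run low. Sterol excess acts through the nuclear receptor LXR, which induces the exporters Abca1 and Abcg1 and the ubiquitin ligase Mylip. Cells that divide need both kinds of lipid for new membranes.

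The promoters of Hmgcs1, Idi1, Cyp51, Sc5d and Srebf2 are shown because these 5 genes were among those with the clearest difference between cultured and marrow cells, and that of Scap because its mean deletion difference passed the threshold. Each line gives the 180 bases before the transcription start, 5′ to 3′ on the gene's strand, from RefSeq on build GRCm38.p6. Capitals mark matches on either strand to TCACNCCAC, the sterol regulatory element to which SREBPs bind, or to CCAAT, the box bound by NF-Y (ATTGG on the other strand).

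Hmgcs1: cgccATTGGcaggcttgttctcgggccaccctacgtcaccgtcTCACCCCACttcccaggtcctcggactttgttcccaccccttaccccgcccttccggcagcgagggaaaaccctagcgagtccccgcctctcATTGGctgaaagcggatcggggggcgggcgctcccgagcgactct
Idi1: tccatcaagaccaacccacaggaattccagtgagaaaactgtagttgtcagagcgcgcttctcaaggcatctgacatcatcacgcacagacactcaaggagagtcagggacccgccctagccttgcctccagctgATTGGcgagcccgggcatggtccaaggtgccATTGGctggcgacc
Cyp51: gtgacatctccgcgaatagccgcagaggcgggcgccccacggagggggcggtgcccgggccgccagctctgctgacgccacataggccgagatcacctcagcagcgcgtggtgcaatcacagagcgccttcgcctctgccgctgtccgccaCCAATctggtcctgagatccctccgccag
Sc5d: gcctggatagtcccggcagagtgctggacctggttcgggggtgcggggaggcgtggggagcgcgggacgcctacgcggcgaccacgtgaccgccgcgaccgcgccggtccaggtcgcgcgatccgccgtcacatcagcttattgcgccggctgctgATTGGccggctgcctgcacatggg
Srebf2: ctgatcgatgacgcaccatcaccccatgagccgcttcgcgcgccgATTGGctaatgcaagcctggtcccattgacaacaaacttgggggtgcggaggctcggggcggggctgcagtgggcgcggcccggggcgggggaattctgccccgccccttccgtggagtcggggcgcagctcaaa
Scap: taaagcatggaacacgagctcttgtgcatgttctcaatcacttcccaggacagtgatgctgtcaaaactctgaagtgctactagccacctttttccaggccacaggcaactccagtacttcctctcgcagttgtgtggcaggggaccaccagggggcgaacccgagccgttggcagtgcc

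These stretches lie at chr13:119690171-119690350 on the plus strand for Hmgcs1, chr13:8885426-8885605 (plus) for Idi1, chr5:4104698-4104877 (minus) for Cyp51, chr9:42264301-42264480 (minus) for Sc5d, chr15:82147089-82147268 (plus) for Srebf2 and chr9:110333108-110333287 (plus) for Scap, the first of 2 Scap promoters listed. The Hmgcs1 stretch holds the sterol regulatory element, which begins 137 bases before the start, and 2 CCAAT boxes. Idi1 holds 2 CCAAT boxes, and Cyp51, Sc5d and Srebf2 hold 1 each. The Scap stretch holds no match to either motif.

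RefSeq promoters were matched for 25 of the 31 genes, by symbol, as windows of 300 bases from 250 before to 50 after a start. None was listed for Fdps, Fdft1, Sqle, Stard4, Npc1 and Abcg1, so these genes were not searched. Acat2, which was not read on the arrays, is among the 25. CCAAT occurred in 21 of the 25 genes (84%), against 41.1% of all 27025 genes in the table. The exceptions were Acat2, Scap, Acaca and Abca1. GGGCGG, the GC box bound by Sp1, occurred on either strand in 22 of the 25 genes (88%), against 38.2% of all genes. The sterol regulatory element occurred in Hmgcs1 only, 1 of 25 genes (4%), against 1.44% of all genes. Matches to different motifs overlapped in 0 places in these promoters. A match describes the letters and is not a bound site, and its absence says only that these exact letters are not in the window.

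Many genes of cholesterol synthesis were higher in cultured than in marrow cells: 7 of the 16 measured sterol synthesis enzymes rose in control cells and 8 in deleted cells, and none fell. In control cells 8 of the 30 genes rose in culture and none fell: Cyp51, Sqle, Hmgcs1, Idi1, Fdps, Srebf2, Fdft1 and Sc5d, by 2.28-fold to 4.35-fold. Over all genes tested, 0.162% rose (26 genes) and 0.305% changed either way in that comparison (limma, adjusted p under 0.05). In deleted cells 9 of the 30 rose in culture and none fell: Cyp51, Fasn, Hsd17b7, Fdps, Idi1, Hmgcs1, Sc5d, Dhcr7 and Fdft1, by 1.99-fold to 3.36-fold, against 0.685% of all genes that rose and 0.978% that changed. The change was above 0 in 26 of the 30 genes in control cells (51.6% of all genes) and in 28 in deleted cells (46.3% of all genes). The median log2 change was 0.55 in control and 0.78 in deleted cells, where all genes had medians of 0.01 and -0.02. The 2 comparisons share no array. In 19 of the 30 genes both cultured arrays read above both marrow arrays in each genotype, against 6.83% of all genes.

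The number of calls depended on single arrays. In control cells 0 of the 30 genes were called without either cultured control array, or without either deleted marrow array, which enters through the shared spread, and 4 without either deleted cultured array. The number was 7 without marrow control 1 and 11 without marrow control 2. In deleted cells 0 were called without either deleted marrow array, 1 (Cyp51) without either deleted cultured array and 6 without either cultured control array, and 12 without either marrow control. With the macrophage marker mean as a covariate, 0 were called in control cells, where Cyp51 then read 2.25 and Hmgcs1 1.78 above marrow, and 12 were called in deleted cells. Neutrophil markers moved with culture, as given above, and their part in the result was not tested. Between the cultured control arrays, which stood at 4.68 and 7.82 in that marker mean, the median absolute difference of the 30 genes was 0.17. Between the deleted cultured arrays, at 5.62 and 8.33, it was 0.23, and the median signed difference was -0.17, array 1 being the lower. The marrow arrays, at 9.25 to 9.68, lay above all cultured arrays in that marker mean. These differences within culture therefore give no measure of the neutrophil part in the rise over marrow. Without both cultured arrays numbered 2, Cyp51 (2.08) and Hmgcs1 (1.70) were the 2 genes called in control cells, and none was called in deleted cells.

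**Figure D1:**
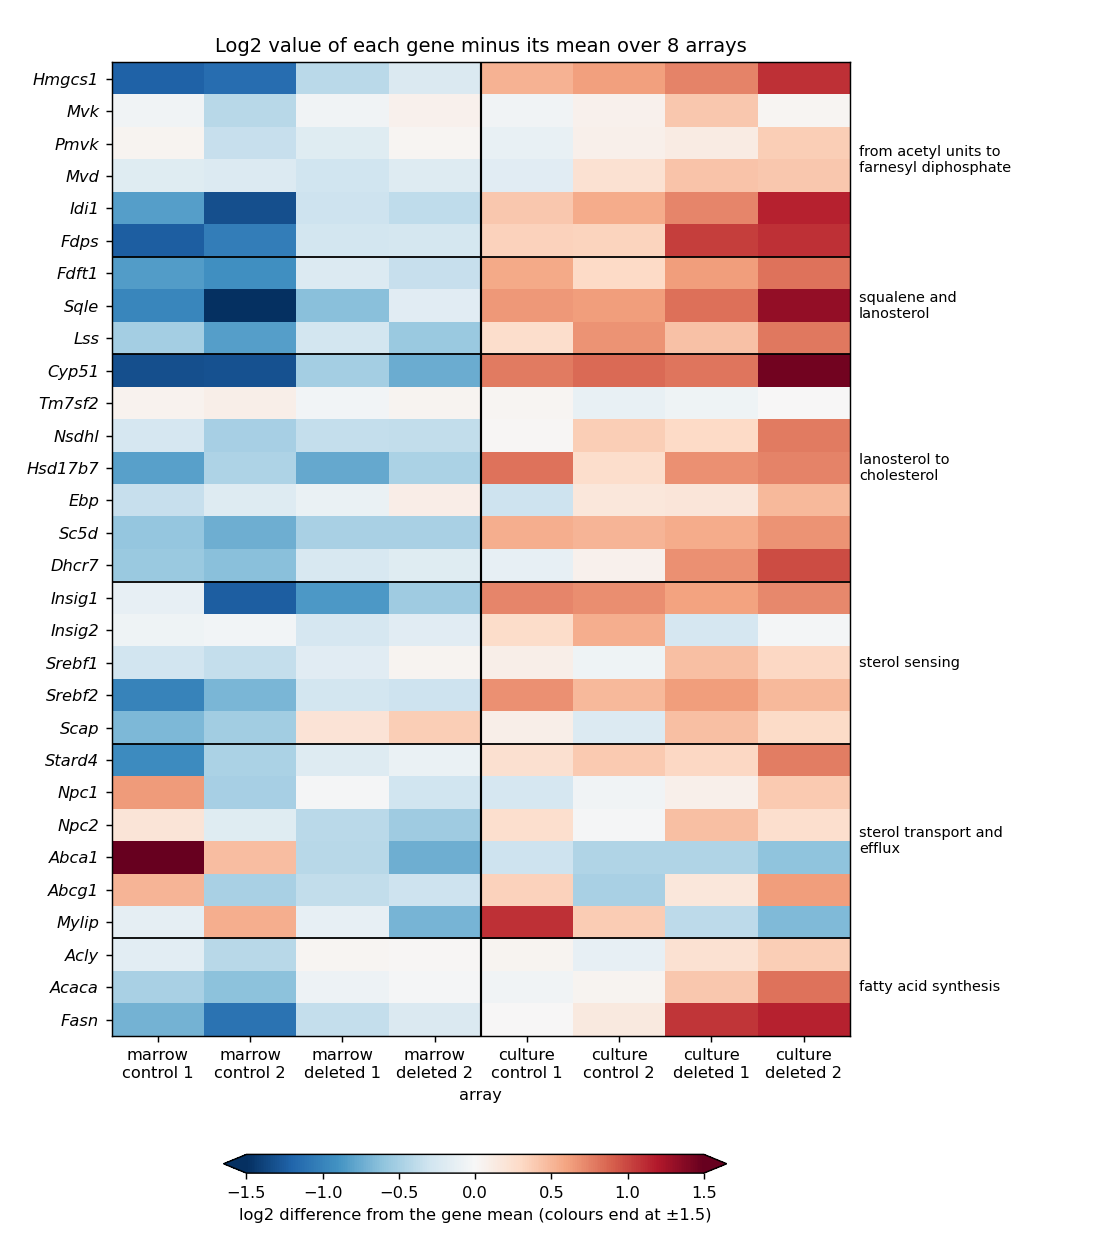
Log2 value of each of the 30 genes (rows, grouped by role) minus the gene's own mean over the 8 arrays (columns), with red above and blue below that mean and colours ending at 1.5. Most enzymes from Hmgcs1 to Dhcr7 are blue in the 4 marrow arrays and red in the 4 cultured arrays, with the marrow controls the deepest blue, whereas Abca1 is red in marrow control 1 (8.36) and marrow control 2 (6.32).

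**Figure D2:**
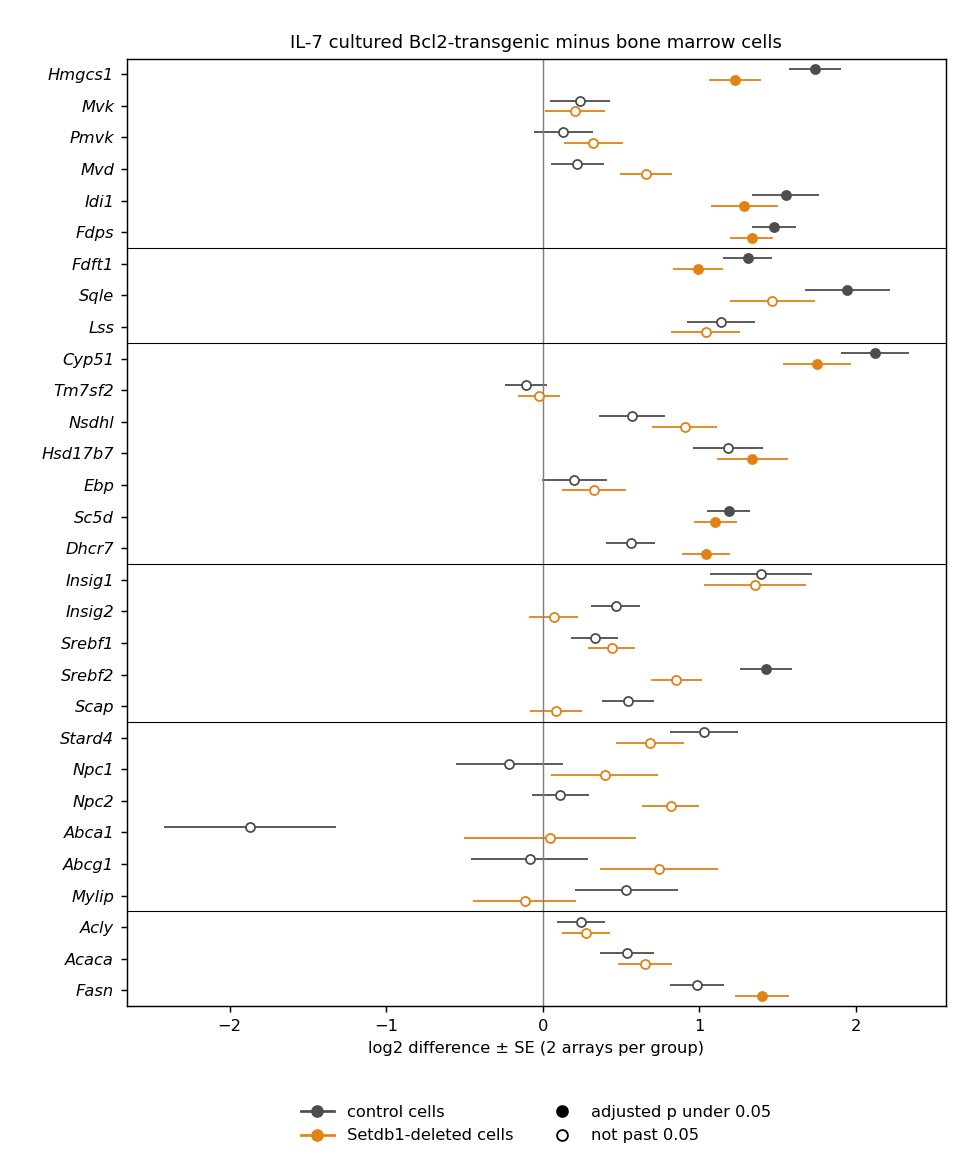
Log2 difference between cultured and marrow cells for each gene, in control cells (grey) and deleted cells (orange), with bars for the SE and filled points for an adjusted p under 0.05. The largest difference is that of Cyp51, 2.12 in control and 1.75 in deleted cells, and the bars of Tm7sf2 cross or reach 0 in both.

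Setdb1 deletion went with higher values of fewer genes and by smaller amounts. In marrow 0 of the 30 genes passed the threshold with limma, while 14 had an unadjusted p under 0.05 (12 higher and 2 lower). Over all genes, 0.131% passed (21 genes) and 11.8% had an unadjusted p under 0.05. In culture Fasn and Dhcr7 rose, 2 of 30, against 0.735% of all genes that rose and 1.45% that changed. On the mean of the marrow and culture differences 5 of 30 rose, namely Fdps, Fasn, Dhcr7, Scap and Hmgcs1, against 1.48% of all genes that rose and 2.86% that changed. The difference was above 0 in 21 of the 30 genes in marrow (56% of all genes) and in 25 in culture (51.3% of all genes), among them all 16 measured sterol synthesis enzymes in culture. The median change was 0.25 in marrow and 0.33 in culture, where the medians of all genes were 0.04 and 0.01. The marrow and culture comparisons of genotype share no array.

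In 13 genes both deleted arrays read above both controls in marrow and again in culture, against 9.31% of all genes. They were Hmgcs1, Idi1, Fdps, Fdft1, Sqle, Ebp, Sc5d and Dhcr7 of the sterol pathway, Acly, Acaca and Fasn of fatty acid synthesis, and the regulators Srebf1 and Scap. Such a gap could be very small, as for Sc5d in culture, where the nearest arrays read 7.71 (deleted) and 7.70 (control). The difference between the deletion effects in culture and in marrow, which is also the difference between the culture effects in deleted and in control cells, passed the threshold for 0 of the 30 genes. With limma, 3 of them had an unadjusted p under 0.05, namely Npc2, Abca1 and Srebf2, and over all genes 0% passed and 7.58% had such a p.

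The deletion calls rested on single arrays as well. In culture 0 genes were called without any 1 of the deleted marrow, cultured control or deleted cultured arrays, and 3 (with Fdps) without either marrow control. On the mean, 0 were called without either deleted marrow array or without cultured control 1, 2 without cultured control 2, 1 (Fdps) without deleted cultured array 2, 4 without deleted cultured array 1 and 6 without either marrow control. Without marrow control 1, Hmgcs1 and Scap lost the call on the mean while Idi1 and Sqle (higher) and Mylip (lower) gained it, and without marrow control 2 Abca1 (lower) gained it. In marrow 2 (Fdps higher, Abca1 lower) were called without marrow control 2. Marker means moved with genotype too. In marrow the macrophage mean went from 9.77 and 6.93 in controls to a range of 6.16 to 6.27. In culture it went from 5.47 and 6.34 to a range of 6.42 to 7.13. The stromal and endothelial mean went from a range of 5.90 to 6.08 to one of 6.27 to 6.50 in marrow, and from a range of 5.65 to 5.80 to one of 6.13 to 6.50 in culture. Its 8 markers did not move together, with changes above 0 in 4 of them in marrow and 6 in culture. Sparc, Col1a1, Col1a2 and Col3a1 had larger values in deleted cells of each setting. Pecam1 went from 8.75 and 8.28 down to 7.50 and 7.08 in culture, and Cdh5 read at most 4.74 in any array. On the mean deletion effect 3 of the 8 rose and 0 fell, against 1.48% of all genes that rose. The T cell mean went from a range of 5.00 to 5.44 to one of 6.02 to 6.04 in culture, where Thy1 was the only 1 of 6 T cell markers with an unadjusted p under 0.05. Thy1 rose from 6.89 and 8.23 to 10.90 and 10.80. The mean of the pro-B markers went from a range of 9.62 to 10.24 to one of 10.25 to 10.37 in marrow, and from a range of 9.75 to 9.90 down to one of 9.43 to 9.63 in culture. In culture 8 of the 11 pro-B markers had an unadjusted p under 0.05 (6 lower and 2 higher), against 15% of all genes, and 0 passed with adjustment in limma. Across the deleted cells, 2 of the 11 pro-B markers, Rag2 and Il7r, fell with culture, against 47 of all 16050 genes. With the macrophage mean as a covariate 9 genes were called on the mean and 1 (Fasn) in culture. The part of the neutrophil, erythroid, pro-B, T cell, stromal and endothelial markers in the result was not tested.

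**Figure D3:**
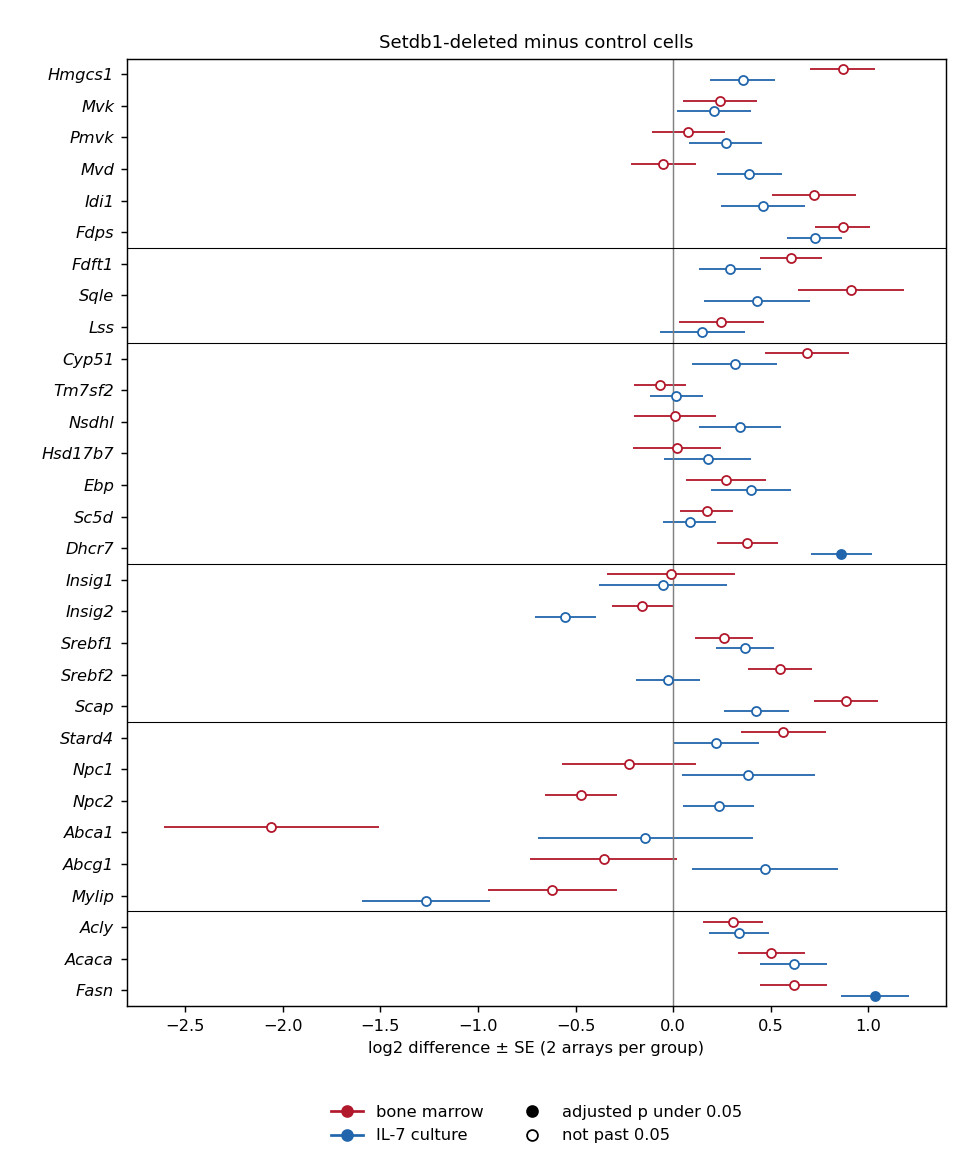
Log2 difference between deleted and control cells for each gene, in bone marrow (red) and in IL-7 culture (blue), with bars for the SE and filled points for an adjusted p under 0.05. Only Fasn (1.03) and Dhcr7 (0.86), both in culture, are filled, and the point farthest to the left is Abca1 in marrow at -2.06.

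The first steps run from acetyl units to farnesyl diphosphate, and 6 of these 7 genes were measured. In culture 3 of the 6 rose in control cells (median change 0.86) and 3 in deleted cells (0.94). Hmgcs1 makes the HMG-CoA from which mevalonate is formed. Hmgcs1 read 5.66 and 5.72 in marrow controls, 6.47 and 6.66 in deleted marrow cells, 7.39 and 7.48 in cultured controls, and 7.61 and 7.96 in deleted cultured cells. The 4 groups did not overlap, and each of the cultured arrays lay above each of the marrow arrays. It rose in culture by 1.74 in control cells (SE 0.17, adjusted p = 0.0134) and by 1.23 in deleted cells (SE 0.17, adjusted p = 0.0232). Of its 13 probesets, 5 were higher and 2 lower in both deleted marrow arrays than in both marrow controls. With deletion Hmgcs1 differed by 0.87 in marrow (SE 0.17, adjusted p = 0.121) and 0.36 in culture (SE 0.17, adjusted p = 0.375), and it rose on the mean by 0.61 (SE 0.12, adjusted p = 0.0417). Without marrow control 1 the mean difference was 0.60 (adjusted p = 0.062).

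Idi1 converts isopentenyl diphosphate into its reactive isomer. Idi1 read 6.09 and 5.59 in marrow controls, 6.59 and 6.53 in deleted marrow cells, 7.31 and 7.46 in cultured controls, and 7.64 and 8.06 in deleted cultured cells. The groups again stood in that order with no overlap. In culture it rose by 1.55 in control cells (SE 0.22, adjusted p = 0.0462) and 1.29 in deleted cells (SE 0.22, adjusted p = 0.0482), while the deletion differences of 0.72 in marrow (adjusted p = 0.269) and 0.46 in culture (adjusted p = 0.377) did not pass.

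Fdps joins the isoprenoid units into farnesyl diphosphate, from which sterols, dolichol and protein prenyl groups branch off. Fdps read 5.30 and 5.51 in marrow controls, 6.27 and 6.28 in deleted marrow cells, 6.89 and 6.88 in cultured controls, and 7.58 and 7.64 in deleted cultured cells. The arrays of a group lay close together, and the groups were well apart. It rose in culture by 1.48 in control cells (SE 0.14, adjusted p = 0.0134) and by 1.33 in deleted cells (SE 0.14, adjusted p = 0.0107). The deletion difference was 0.87 in marrow (SE 0.14, adjusted p = 0.0815) and 0.73 in culture (SE 0.14, adjusted p = 0.0589), and the mean of both was a rise of 0.80 (SE 0.10, adjusted p = 0.0121). The difference between the deletion effects was -0.14 (95% interval -0.60 to 0.32).

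The kinases and decarboxylase in between passed in no comparison. Mvk, which phosphorylates mevalonate, read 5.51 to 6.33 over the 8 arrays, Pmvk, which adds the next phosphate, 6.02 to 6.73, and Mvd, which decarboxylates the product, 5.55 to 6.29. None of the 3 passed the threshold in any contrast. Mvd came closest in deleted cells, where culture differed from marrow by 0.66 (SE 0.17, adjusted p = 0.148).

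The next 3 genes lead from farnesyl diphosphate to lanosterol, the first sterol. Fdft1 encodes squalene synthase, which commits the pathway to sterols. Fdft1 read 6.34 and 6.27 in marrow controls, 6.98 and 6.84 in deleted marrow cells, 7.75 and 7.48 in cultured controls, and 7.81 and 8.0 in deleted cultured cells. No group overlapped another. It rose in culture by 1.31 in control cells (SE 0.16, adjusted p = 0.029) and by 0.99 in deleted cells (SE 0.16, adjusted p = 0.0407). Deletion differed by 0.61 in marrow (SE 0.16, adjusted p = 0.219) and 0.29 in culture (adjusted p = 0.455). Both deleted arrays read above both controls in 4 of its 5 probesets in marrow and in 1 of 5 in culture.

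Sqle encodes squalene epoxidase, a step that needs oxygen and is held to limit the rate of the later pathway. Sqle read 5.69 and 5.04 in marrow controls, 6.05 and 6.50 in deleted marrow cells, 7.33 and 7.30 in cultured controls, and 7.50 and 7.99 in deleted cultured cells. The marrow arrays spread more widely than the cultured controls but stayed below all cultured arrays. Sqle rose in culture by 1.94 in control cells (SE 0.27, adjusted p = 0.0462), with all 13 of its probesets higher in both cultured arrays than in both marrow arrays. In deleted cells the difference was 1.47 (SE 0.27, adjusted p = 0.0635), again in 13 of 13 probesets. Such gaps were common: 3641 of 16050 gene values were above in that way in control cells and 3098 in deleted cells. In every such count, probesets of a gene share their arrays and are not replicates. Shares over all probesets were not computed. The deletion difference was 0.91 in marrow (SE 0.27, adjusted p = 0.272), and 1.23 without marrow control 1 (adjusted p = 0.152). Lss, which closes squalene epoxide into lanosterol, read 4.53 to 5.08 in marrow and 5.62 to 6.15 in culture. Its culture differences of 1.14 (adjusted p = 0.117) and 1.04 (adjusted p = 0.0929) did not pass.

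Of the 7 genes from lanosterol to cholesterol, 2 rose in culture in control cells (median 0.57) and 4 in deleted cells (median 1.04). Cyp51 removes the first methyl group of lanosterol and had the largest rise among the 30 genes in either culture comparison. Cyp51 read 5.20 and 5.21 in marrow controls, 6.01 and 5.77 in deleted marrow cells, 7.29 and 7.36 in cultured controls, and 7.32 and 7.96 in deleted cultured cells. Marrow and culture were far apart, whereas the genotypes overlapped in culture. It rose in culture 4.35-fold in control cells, by 2.12 on the log2 scale (SE 0.22, adjusted p = 0.0155), and 3.36-fold in deleted cells, by 1.75 (SE 0.22, adjusted p = 0.0175). The deletion difference was 0.69 in marrow (SE 0.22, adjusted p = 0.295) and 0.32 in culture (adjusted p = 0.57).

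Sc5d introduces the ring double bond of the penultimate intermediates. Sc5d read 6.58 and 6.42 in marrow controls, 6.67 and 6.67 in deleted marrow cells, 7.70 and 7.67 in cultured controls, and 7.71 and 7.82 in deleted cultured cells. Culture set the arrays far apart. Deleted arrays lay above their controls in both settings, but only narrowly. It rose in culture by 1.19 in control cells (SE 0.14, adjusted p = 0.025) and by 1.10 in deleted cells (SE 0.14, adjusted p = 0.0175), and the mean deletion effect was 0.13 (SE 0.10, 95% interval -0.10 to 0.35).

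Dhcr7 carries out the last reduction to cholesterol. Dhcr7 read 6.82 and 6.75 in marrow controls, 7.14 and 7.20 in deleted marrow cells, 7.26 and 7.44 in cultured controls, and 8.07 and 8.36 in deleted cultured cells. The deleted cultured arrays were the high ones, and the deleted marrow arrays nearly reached the cultured controls. With deletion it rose 1.82-fold in culture, by 0.86 (SE 0.16, adjusted p = 0.0491), and on the mean by 0.62 (SE 0.11, adjusted p = 0.0336). In culture 8 of its 11 probesets were higher in both deleted arrays, as were 3603 of 16050 gene values. In marrow the difference was 0.38 (SE 0.16, adjusted p = 0.398). With culture it rose by 1.04 in deleted cells (SE 0.16, adjusted p = 0.0311) and differed by 0.56 in control cells (SE 0.16, adjusted p = 0.215). The difference between these effects was 0.48 (SE 0.22, adjusted p = 0.666).

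Hsd17b7, a ketone reductase that follows demethylation, read 5.77 and 6.13 in marrow controls, 5.82 and 6.11 in deleted marrow cells, 7.40 and 6.86 in cultured controls, and 7.28 and 7.34 in deleted cultured cells. Genotypes overlapped on both sides, while marrow and culture did not. It rose in culture by 1.34 in deleted cells (SE 0.23, adjusted p = 0.0484), and the difference in control cells was 1.18 (SE 0.23, adjusted p = 0.111). Nsdhl, the dehydrogenase that acts with it, read 6.06 to 6.30 in marrow and 6.58 to 7.34 in culture. Its culture difference was 0.57 in control cells (adjusted p = 0.319) and 0.91 in deleted cells (adjusted p = 0.121). Ebp, the sterol isomerase, read 6.55 to 7.38 and Tm7sf2, a sterol reductase, 5.34 to 5.54 over all arrays. Neither passed in any contrast, and Tm7sf2 had culture differences of -0.11 and -0.02.

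**Figure D4:**
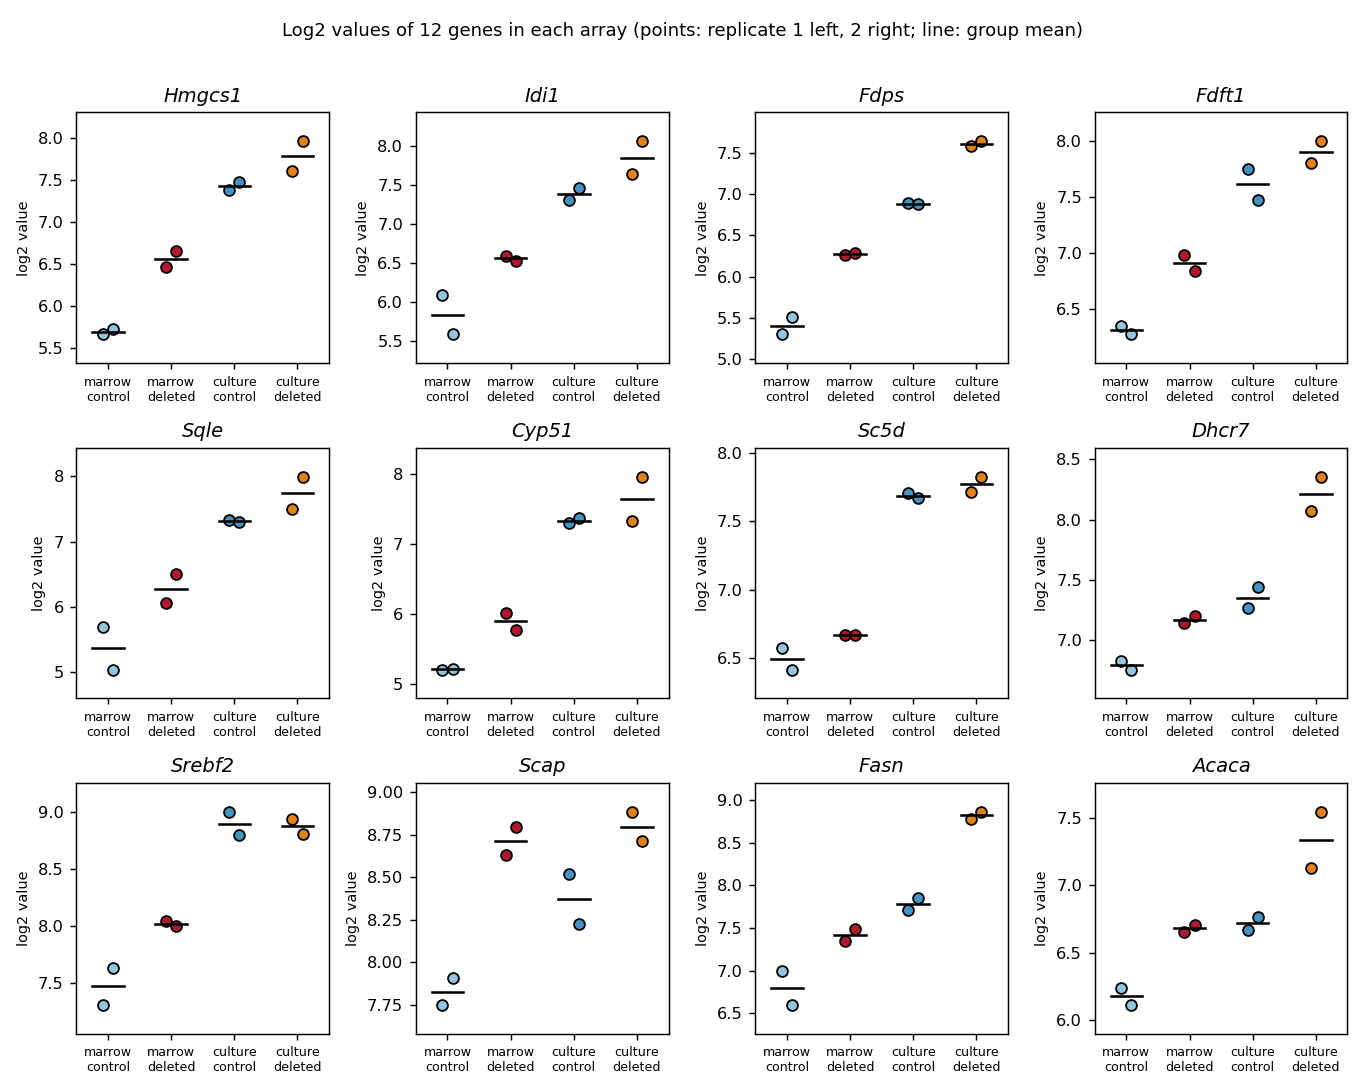
Log2 values of 12 genes in each array (points, with replicate 1 on the left) and the group mean (line), from marrow controls through deleted marrow cells and cultured controls to deleted cultured cells, on an axis of its own for each gene. Hmgcs1, Idi1, Fdps, Fdft1 and Sqle step upward over the 4 groups in that order, Sc5d and Srebf2 are level between the cultured groups, and Scap is high in both deleted groups.

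Among the sterol sensors, the precursor genes and their escort had different patterns. Srebf2 encodes SREBP2, the main activator of cholesterol synthesis. Srebf2 read 7.31 and 7.64 in marrow controls, 8.04 and 8.0 in deleted marrow cells, 9.0 and 8.80 in cultured controls, and 8.94 and 8.81 in deleted cultured cells. The cultured arrays of both genotypes shared 1 range, above the deleted marrow cells, which in turn lay above the marrow controls. All 25 of its probesets were higher in both cultured controls than in both marrow controls, as were 3641 of 16050 gene values. In control cells Srebf2 rose 2.69-fold with culture, by 1.43 (SE 0.16, adjusted p = 0.025). Without marrow control 1 that change was 1.26 (adjusted p = 0.0541). In deleted cells it was 0.85 (SE 0.16, adjusted p = 0.0708). The deletion difference was 0.55 in marrow (SE 0.16, adjusted p = 0.274) and -0.02 in culture (SE 0.16, 95% interval -0.41 to 0.36). The difference between them was -0.57 (SE 0.23, adjusted p = 0.65).

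Scap carries both SREBPs to the Golgi for cleavage. Scap read 7.75 and 7.91 in marrow controls, 8.63 and 8.80 in deleted marrow cells, 8.52 and 8.22 in cultured controls, and 8.88 and 8.71 in deleted cultured cells. Both deleted groups were high and did not overlap their controls. It rose with deletion on the mean by 0.66 (SE 0.12, adjusted p = 0.0336), and without marrow control 1 that difference was 0.62 (adjusted p = 0.0526). The parts of that mean were 0.89 in marrow (SE 0.17, adjusted p = 0.114) and 0.43 in culture (SE 0.17, adjusted p = 0.284). In marrow 20 of 24 probesets were higher in both deleted arrays, as were 4378 of 16050 gene values. Culture differed from marrow by 0.54 in control cells (adjusted p = 0.246) and 0.08 in deleted cells (95% interval -0.30 to 0.47).

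Srebf1 encodes SREBP1, which favours genes of fatty acid synthesis. Srebf1 read 6.75 and 6.69 in marrow controls, 6.87 and 7.09 in deleted marrow cells, 7.13 and 6.98 in cultured controls, and 7.49 and 7.35 in deleted cultured cells. Deleted arrays lay above their controls in both settings, but the differences were small, 0.26 in marrow (SE 0.15, adjusted p = 0.548) and 0.37 in culture (SE 0.15, adjusted p = 0.305). Probesets read across the gene, so the transcripts that start at its alternative promoters were not separated.

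Insig1 and Insig2 encode the retention proteins, and Insig1 is itself a target of the SREBPs. Insig1 read 8.26 and 7.15 in marrow controls, 7.53 and 7.86 in deleted marrow cells, 9.12 and 9.08 in cultured controls, and 8.99 and 9.10 in deleted cultured cells. All cultured arrays were above all marrow arrays, and marrow control 1 was well above marrow control 2. The culture difference of 1.39 in control cells (SE 0.33, adjusted p = 0.162) became 1.95 without marrow control 1 (SE 0.20, adjusted p = 0.0204). In deleted cells it was 1.35 (SE 0.33, adjusted p = 0.133). In each genotype 5 of 5 probesets were higher in culture. Of 16050 gene values, 3641 in control cells and 3098 in deleted cells were higher in that way. The deletion difference of Insig1 was -0.01 in marrow (SE 0.33, adjusted p = 0.995) and -0.05 in culture (SE 0.33, adjusted p = 0.968). Without marrow control 1 the marrow difference was 0.55 (adjusted p = 0.359). Insig2 read 6.26 and 6.27 in marrow controls, 6.06 and 6.15 in deleted marrow cells, 6.60 and 6.86 in cultured controls, and 6.06 and 6.29 in deleted cultured cells. It was lower in deleted than in control arrays in both settings, with differences of -0.16 in marrow (adjusted p = 0.762) and -0.55 in culture (SE 0.16, adjusted p = 0.161), neither past the threshold.

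Fatty acid synthesis was represented by 3 genes, and 1 of them, Fasn, rose with deletion in culture. Fasn encodes fatty acid synthase, which builds palmitate. Fasn read 7.0 and 6.60 in marrow controls, 7.35 and 7.49 in deleted marrow cells, 7.71 and 7.85 in cultured controls, and 8.78 and 8.86 in deleted cultured cells. The deleted cultured cells were clearly the highest group, and no groups overlapped. With deletion it rose 2.05-fold in culture, by 1.03 (SE 0.17, adjusted p = 0.0388). There 39 of 47 probesets were higher in both deleted arrays and 1 was lower, against 3603 higher and 3494 lower of 16050 gene values. In marrow the difference was 0.62 (SE 0.17, adjusted p = 0.242), and the mean was a rise of 0.83 (SE 0.12, adjusted p = 0.0186). With culture it rose 2.64-fold in deleted cells, by 1.40 (SE 0.17, adjusted p = 0.0175), and differed by 0.98 in control cells (SE 0.17, adjusted p = 0.0883). The difference between these effects was 0.42 (SE 0.24, 95% interval -0.15 to 0.98).

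Acaca, the carboxylase that makes malonyl-CoA, read 6.24 and 6.11 in marrow controls, 6.65 and 6.71 in deleted marrow cells, 6.67 and 6.76 in cultured controls, and 7.12 and 7.54 in deleted cultured cells. Deleted marrow cells and cultured controls lay together, between the other groups. The deletion difference was 0.50 in marrow (SE 0.17, adjusted p = 0.332) and 0.62 in culture (SE 0.17, adjusted p = 0.156), and 0.56 on the mean (SE 0.12, adjusted p = 0.0619). Acly supplies cytosolic acetyl-CoA from citrate and read 7.86 to 8.64 over all arrays. Its deletion differences were 0.31 in marrow (SE 0.15, adjusted p = 0.485) and 0.34 in culture (SE 0.15, adjusted p = 0.362).

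None of the 6 genes of sterol transport and efflux passed the threshold in any contrast. Abca1, which exports cholesterol to lipoproteins and is abundant in macrophages, had the widest range. Abca1 read 8.36 and 6.32 in marrow controls, 5.44 and 5.12 in deleted marrow cells, 5.54 and 5.40 in cultured controls, and 5.40 and 5.25 in deleted cultured cells. Marrow control 1 was far above the rest, marrow control 2 came next, and the other 6 arrays shared a narrow range. The deletion difference in marrow was -2.06 (SE 0.55, adjusted p = 0.226). There 37 of 49 probesets were lower in both deleted arrays, as were 2819 of 16050 gene values. Of the 14 macrophage markers, 13 were highest in marrow control 1 too. Mrc1 stood at 10.95 against 5.21 and Vcam1 at 12.04 against 6.37 in marrow control 2. Lyz2 was close, at 11.93 against 11.79, and Itgam was lower in marrow control 1, at 7.88 against 8.44. The source of the Abca1 signal was not tested. Without marrow control 1 the difference was -1.04 (SE 0.21, adjusted p = 0.126), and with the macrophage mean as a covariate it was -0.77 (adjusted p = 0.462). In culture it was -0.14 (SE 0.55, 95% interval -1.42 to 1.14). The difference between marrow and culture was 1.92 (SE 0.78, adjusted p = 0.65), 0.90 without marrow control 1 (adjusted p = 0.647) and 0.11 with the macrophage covariate. Without marrow control 2, the marrow difference and the one between marrow and culture both passed, in a setting where 570 and 461 of all genes did.

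Npc2 carries cholesterol inside lysosomes and hands it to the membrane protein Npc1. Npc2 read 9.32 and 8.94 in marrow controls, 8.72 and 8.60 in deleted marrow cells, 9.38 and 9.11 in cultured controls, and 9.58 and 9.38 in deleted cultured cells. Both deleted arrays were below both controls in marrow. In culture the nearest arrays of the genotypes, both at 9.38, were equal at this rounding. The difference was -0.47 in marrow (SE 0.18, adjusted p = 0.38) and 0.23 in culture (SE 0.18, adjusted p = 0.631), and the marrow difference was -0.28 without marrow control 1 (adjusted p = 0.663). Npc1 read 8.21 and 7.07 in the marrow controls and 7.27 to 7.97 in the other arrays. Its marrow deletion difference of -0.22 turned to 0.34 without marrow control 1, neither past the threshold. Abcg1, an exporter to high-density lipoprotein, read 8.06 in marrow control 1 against 7.07 in marrow control 2. It was highest in deleted cultured array 2, at 8.18, and read 7.90 in cultured control 1. The marrow deletion difference of Abcg1, -0.36, turned to 0.14 without marrow control 1.

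Mylip encodes the ligase that sends lipoprotein receptors to degradation. Mylip read 7.79 and 8.47 in marrow controls, 7.80 and 7.22 in deleted marrow cells, 9.02 and 8.30 in cultured controls, and 7.53 and 7.25 in deleted cultured cells. In culture both deleted arrays were below both controls, while in marrow the groups overlapped. Of its 10 probesets, 8 were lower in both deleted cultured arrays, as were 3494 of 16050 gene values. The deletion difference was -1.27 in culture (SE 0.33, adjusted p = 0.133), -0.62 in marrow (SE 0.33, adjusted p = 0.512) and -0.94 on the mean (SE 0.23, adjusted p = 0.0886). In marrow it was -0.96 without marrow control 1 (adjusted p = 0.36) and -1.24 with the macrophage covariate (adjusted p = 0.198). The mean passed without marrow control 1, at -1.11 (adjusted p = 0.0456), and with the macrophage covariate, at -1.13 (adjusted p = 0.0201). Stard4, a soluble sterol carrier, read 5.44 to 6.29 in marrow and 6.63 to 7.16 in culture. Its culture difference was 1.03 in control cells (SE 0.22, adjusted p = 0.143) and 0.68 in deleted cells (SE 0.22, adjusted p = 0.259).

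**Figure D5:**
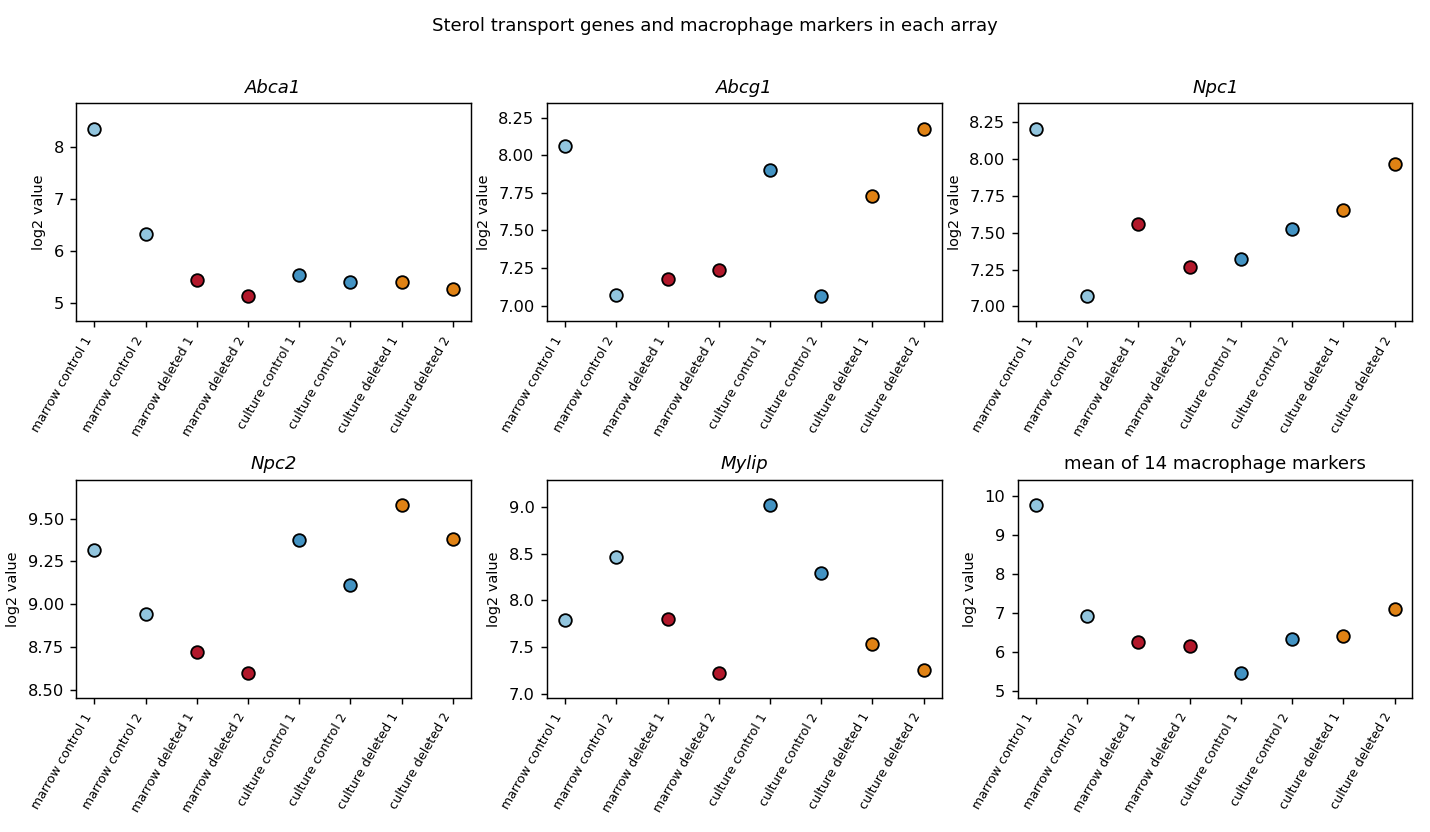
Log2 values of Abca1, Abcg1, Npc1, Npc2 and Mylip and the mean of 14 macrophage markers in each of the 8 arrays, with a colour for each group and an axis of its own for each panel. Abca1 (8.36) and Npc1 (8.21) share their highest array, marrow control 1, with the macrophage mean (9.77), and Mylip is highest in cultured control 1 (9.02).

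Neighbouring genes of the same pathways were read as lists. Of 6 further sterol enzymes, 4 were measured, and Sc4mol, the C4-methyl oxidase that acts after Cyp51, was the 1 that rose. Sc4mol read 5.34 to 5.96 in marrow and 7.0 to 7.72 in culture, a rise of 1.79 in deleted cells (SE 0.26, adjusted p = 0.0259). In control cells the difference was 1.65 (SE 0.26, adjusted p = 0.0622). Of 13 genes for sterol sensing, uptake and storage, 11 were measured, and Lrp8, a receptor for apolipoprotein E and reelin, was the 1 that changed. It rose with deletion on the mean by 0.74 (SE 0.14, adjusted p = 0.0366). Of 8 genes of LXR and efflux, 6 were tested and 0 passed in any contrast with limma. At an unadjusted p under 0.05, 2 of them were lower with deletion in marrow (5.2% of all genes) and 2 were lower with culture in control cells (6.51% of all genes). Apoe had the largest of the marrow deletion differences in this list, -3.19. It read 12.02 and 9.32 in marrow controls against 7.93 and 7.03 in deleted marrow cells. Nr1h3, which encodes an LXR, and Rxra, which encodes a partner of it, read highest in marrow control 1, at 6.76 and 7.55 against 4.98 and 5.73 in marrow control 2. Rxra overlapped between the marrow genotypes, with 6.10 in deleted marrow array 1. These genes were picked after their values were seen, and the part of the macrophage markers there was not tested.

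Of 18 genes for the supply, elongation and activation of fatty acids, 17 were tested. Fads2, the first desaturase of polyunsaturated fatty acids, rose with deletion by 1.92 in marrow (SE 0.20, adjusted p = 0.023) and by 1.27 in culture (SE 0.20, adjusted p = 0.0366). It also rose with culture in control cells by 1.69 (SE 0.20, adjusted p = 0.0287). Elovl6 lengthens the palmitate that Fasn makes. Elovl6 read 7.81 and 7.81 in marrow controls, 8.97 and 9.01 in deleted marrow cells, 8.02 and 8.39 in cultured controls, and 9.22 and 9.54 in deleted cultured cells. Deleted arrays were above all control arrays of either setting. Its difference with deletion was 1.18 in marrow (SE 0.18, adjusted p = 0.0715), and it rose by 1.18 in culture (SE 0.18, adjusted p = 0.0343) and by 1.18 on the mean (SE 0.13, adjusted p = 0.00713). Scd1, which makes monounsaturated fatty acids, read 8.71 and 10.18 in marrow controls, 5.77 and 5.22 in deleted marrow cells, 11.56 and 11.06 in cultured controls, and 10.48 and 10.02 in deleted cultured cells. The deleted marrow cells were far below the other groups. It fell with deletion by 3.95 on the log2 scale in marrow (SE 0.46, adjusted p = 0.0345) and rose with culture in deleted cells by 4.76 (SE 0.46, adjusted p = 0.0098). The difference between its deletion effects was 2.89 (SE 0.65, adjusted p = 0.455).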

How the data were processed

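The deposited values were log2 signals of 241576 probesets in 8 arrays, which the authors obtained by RMA in Affymetrix Expression Console (version 1.2.0.20), per the submitters' processing notes. RMA corrects background, makes the arrays' distributions equal by quantiles and summarises probes, so a shift shared by most genes would be removed. Groups came from the sample titles. Probesets with several symbols (4475) or none (25004) were not used. A gene's value was the median polish over its probesets. Genes above the 25th percentile (log2 4.03) in at least 2 arrays were tested, 16050 in all, and 4366 were left out.

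One model with 4 group means was fitted to the 8 arrays with limma 3.58.1 in R 4.3.3 (files read with data.table, version 1.17.8), with moderated variances on 4 residual and 3.53 prior degrees of freedom, two-sided tests and Benjamini-Hochberg adjustment over those 16050 genes. The threshold was 0.05. A call is an adjusted p under that threshold. "Mean" is the average of the deletion effects in marrow and culture. The code was tested on simulated data. The genes, lists and marker sets were chosen with earlier results of these data known. Values are given for every gene past the threshold in any contrast, the 4 with the lowest p in each deletion contrast, the 3 with the lowest p in the interaction, and the 5 sterol sensors. Other lists name up to 3 of the largest calls. Marker lists for erythroid cells (mean 4.96 to 6.13 over the arrays) were also read. That mean hides Hbb-b1, at 8.73 and 9.22 in marrow controls and 8.65 and 7.94 in deleted marrow cells. It read 3.32 and 7.49 in cultured controls and 2.58 and 6.79 in deleted cultured cells. The culture change was below 0 in 4 of 6 erythroid markers in control cells and 3 of 6 in deleted cells. The part of these markers in any result was not tested. Alternatives were other probeset summaries, filters, variance models and scalings, a replicate block, the macrophage marker mean as the only marker covariate, and arrays left out. The number of arrays limits the precision of every value.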

Additional observations from a re-analysis of the deposited data

Results flagged for a closer look

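Npc2, the lysosomal cholesterol carrier, was flagged because both deleted arrays lay below both controls in marrow (8.72 and 8.60 against 9.32 and 8.94) and above both in culture (9.58 and 9.38 against 9.38 and 9.11), where the nearest arrays were equal at this rounding. Each of these gaps was common. Of 16050 genes, 2819 read below in that way in marrow and 3603 above in culture. Genes with both gaps were not counted. The difference between the deletion effects in culture and in marrow was 0.70 on the log2 scale (SE 0.26, 95% interval 0.10 to 1.31, adjusted p = 0.63), and 0.52 without marrow control 1 (adjusted p = 0.813), so it did not pass the threshold.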

How the results depend on the processing

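Over all alternatives run, no followed change past the threshold reversed its direction. Of deletion differences in marrow, 4 turned sign without marrow control 1 (Npc1, Abcg1, Insig1 and Hsd17b7), and these and Mvd with the macrophage covariate, none past the threshold. Of 594 recomputed values for the gene changes followed, 142 lost the call when arrays were left out and 58 under other settings, and 4 and 1 gained it. The median change of the 30 genes ranged from 0.55 to 0.74 for culture in control cells, 0.67 to 0.89 for culture in deleted cells, 0.18 to 0.42 for deletion in marrow and 0.19 to 0.39 for deletion in culture. Leaving out 1 array at a time, the number of the 30 genes called ranged from 0 to 11 for culture in control cells, 0 to 12 for culture in deleted cells, 0 to 2 for deletion in marrow, 0 to 3 for deletion in culture, 0 to 1 for the interaction and 0 to 6 for the mean deletion effect. With 1 array left in a group, that array is assumed to vary like the others.

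For deletion in culture, against 2 in the reported fit, 1 gene (Fasn) was called with the mean of probesets, with no filter on dim genes, with array weights, with arrays centred on their median and with the macrophage marker covariate. The number was 0 there when only the arrays compared were fitted and without both culture arrays numbered 2. On the mean deletion effect, 9 genes instead of 5 were called with the macrophage covariate and 0 without both culture arrays numbered 2. For culture in control cells, 0 instead of 8 were called with only the arrays compared and with the macrophage covariate, and 2 without both culture arrays numbered 2. For culture in deleted cells, 0 instead of 9 were called without both culture arrays numbered 2. That setting was chosen after seeing the data. The cause of these shifts was not tested.

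Whether replicate numbers pair samples is not known here. Deviations of arrays with the same number correlated at 0.34 between the cultured genotypes. They correlated at 0.05 between the marrow genotypes, -0.12 between the controls and -0.08 between the deleted cells. In culture both arrays numbered 2 also had the higher neutrophil marker mean, 7.82 in controls and 8.33 in deleted cells, against 4.68 and 5.62. With the replicate block 0 genes were called for deletion in culture, 0 for culture in control cells, 0 for culture in deleted cells and 4 on the mean deletion effect. With the numbers crossed between marrow and cultured controls, a setting added after seeing the data, 1 (Hmgcs1) was called for culture in control cells.

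Fitting 2 arrays per group bounds what can be called, and array dates or slides were not used here.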
